A study of Homo sapiens with 6 samples.

Results

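Cells limit retrotransposons with a set of factors that act on RNA, on DNA copies of RNA or on the nucleotides needed to make them. The 10 genes described here were chosen by name for such roles, not by their values, and were found by symbol in a count table of 19986 protein-coding genes. ADAR edits adenosines in double-stranded RNA, MOV10 is an RNA helicase, and ZC3HAV1 encodes the zinc finger antiviral protein, which binds CG-rich RNA. APOBEC3B and APOBEC3C deaminate cytidines in single-stranded DNA, SAMHD1 degrades deoxynucleotides, TREX1 digests DNA ends in the cytosol, and RNASEH2A, RNASEH2B and RNASEH2C form RNase H2, which cuts RNA paired with DNA.

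Retrotransposons copy themselves through an RNA that is reverse transcribed and inserted elsewhere in the genome. L1 elements encode that machinery, and Alu and SVA elements borrow it. Several restriction factors, among them ADAR, ZC3HAV1, MOV10, SAMHD1 and the APOBEC3 family, are known as interferon-stimulated genes in at least some cell types, whereas the RNase H2 subunits are known as housekeeping genes of DNA replication and repair.

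RNA came from HEK293T, a transformed human embryonic kidney line. All 6 libraries carried dCas9-VP64 (a Cas9 that cannot cut, joined to an activator domain) and rtTA, and their titles name SunTag. The 3 guide libraries, with the genotype label CRISPRa, also received a guide RNA to SVA_D, a subfamily of SVA elements, and the 3 without it carry the genotype label WT. Nothing in the labels ties the 3 replicates of a group to separate cultures. All p-values therefore refer to the spread between libraries, which may be technical.

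Gene counts summed to 16557854 to 22651168 per library. In the file headers, the alignment names of replicate 3 of both groups follow another scheme than those of replicates 1 and 2. The first principal component, with 74.7% of the variance, separated these 2 libraries (below, batch B) from the remaining 4 (batch A). The word batch stands for the naming scheme only. Of the markers listed for the line, VIM was at 681 to 2039 CPM (the count scaled to a library of 1000000) and NEFM at 185 to 365 CPM. Lower were KRT8 at 23.8 to 41.0 CPM, EYA1 at 14.3 to 28.7 CPM, PAX2 at 4.79 to 8.87 CPM and LHX1 at 2.001 to 4.54 CPM. NEFL lay between NEFM and KRT8. KRT18 was at 43.2 to 56.3 CPM in batch A, above KRT8. In batch B it was at 36.5 and 26.7 CPM, below KRT8 at 41.0 and 32.1 CPM in the same libraries. The blood markers PTPRC and CD3E were at 0 to 0.122 CPM. Of 3 fibroblast markers, COL1A1 was at 1.81 to 3.42 CPM in batch A and 14.8 to 16.5 CPM in batch B, and COL1A2 and DCN were at 0 in batch A and at 0.0441 to 0.856 CPM in batch B.

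Promoters are shown for ZC3HAV1 and RNASEH2C, the members with the largest rise and the largest fall between the batches, and for ADAR, the member with the highest CPM. They are the 250 bases before the transcript start in RefSeq (GRCh38.p14), and 8 of the 10 members had such windows, 13 in all. ADAR is shown with 2 windows, because its upstream and internal starts give different protein forms that gene counts cannot tell apart. Capitals mark matches to the 4 motifs searched on both strands, and RNASEH2C had none.
ZC3HAV1, chr7:139109721-139109970, minus strand: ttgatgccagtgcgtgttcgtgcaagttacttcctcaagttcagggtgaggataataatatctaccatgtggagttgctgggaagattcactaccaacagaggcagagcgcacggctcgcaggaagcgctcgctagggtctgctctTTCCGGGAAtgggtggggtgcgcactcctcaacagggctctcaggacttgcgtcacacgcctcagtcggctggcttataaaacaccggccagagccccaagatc
ADAR, upstream start, chr1:154627998-154628247, minus strand: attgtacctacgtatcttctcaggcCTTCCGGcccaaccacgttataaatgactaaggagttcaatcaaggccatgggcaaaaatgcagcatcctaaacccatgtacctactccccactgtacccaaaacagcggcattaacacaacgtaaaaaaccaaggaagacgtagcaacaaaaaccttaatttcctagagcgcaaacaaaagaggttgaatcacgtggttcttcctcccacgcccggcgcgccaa
ADAR, internal start, chr1:154608798-154609047, minus strand: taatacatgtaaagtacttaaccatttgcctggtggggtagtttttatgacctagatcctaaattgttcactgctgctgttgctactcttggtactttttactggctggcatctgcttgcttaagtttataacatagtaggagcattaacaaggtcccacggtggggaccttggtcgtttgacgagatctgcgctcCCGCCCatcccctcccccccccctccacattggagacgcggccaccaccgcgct
RNASEH2C, chr11:65720799-65721048, minus strand: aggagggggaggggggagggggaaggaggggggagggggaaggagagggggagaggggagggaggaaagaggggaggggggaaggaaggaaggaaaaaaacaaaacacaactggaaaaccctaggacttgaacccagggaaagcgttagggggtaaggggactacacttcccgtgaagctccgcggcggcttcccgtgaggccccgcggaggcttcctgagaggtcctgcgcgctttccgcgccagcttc

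The motifs were the core of an interferon-stimulated response element (GAAA, any 2 bases, GAAA), TTCNNNGAA (a STAT site), GGGCGG (a GC box) and CCGGAAG (an ETS site). The first was in 0 of the 13 member windows and in 3.02% of all 35116 windows. TTCNNNGAA was in the ZC3HAV1 window and in 6.57% of all windows. GGGCGG was in windows of ADAR and RNASEH2B and in 42.6% of all, and CCGGAAG in windows of ADAR and RNASEH2A and in 8.52% of all. These matches describe the letters of the windows, and the windows were chosen after the values were seen.

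Only 6 of the 10 members had enough counts for a test. TREX1, APOBEC3B and RNASEH2A were at 0 counts in all 6 libraries. APOBEC3C had 0, 3 and 2 counts with the guide and 1, 2 and 5 without it, at or near the floor of 3 counts. Each of these 4 genes lies almost wholly inside another gene of the count table. Per the file headers, counts were taken over whole gene bodies without strand, and no option to keep read pairs that meet 2 genes was set, so such pairs are left out. Their values therefore say nothing about how much of these RNAs the cells held.

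TREX1 (ENSG00000213689) lies on chromosome 3 (GRCh38, 48465811 to 48467645, plus strand), and 100% of its body is covered by ATRIP, a checkpoint gene on the same strand. ATRIP itself had 3764 counts over the 6 libraries from its remaining part. RNASEH2A (ENSG00000104889), the catalytic subunit of RNase H2, runs from 12806556 to 12815201 on chromosome 19. Its body is covered to 100% by HOOK2 on the other strand, with 2985 counts, and in part by THSD8, with 0 counts.

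APOBEC3B (ENSG00000179750), from 38982347 to 38992804 on chromosome 22, is covered to 99.8% by the counted body of its neighbour APOBEC3A, which had 6 counts in all. APOBEC3C (ENSG00000244509), from 39014257 to 39020352, is covered to 98.3% by ENSG00000284554, which had 8 counts. The APOBEC3 genes are also similar in sequence, and pairs that align to several places were not counted for genes.

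**Figure D1:**
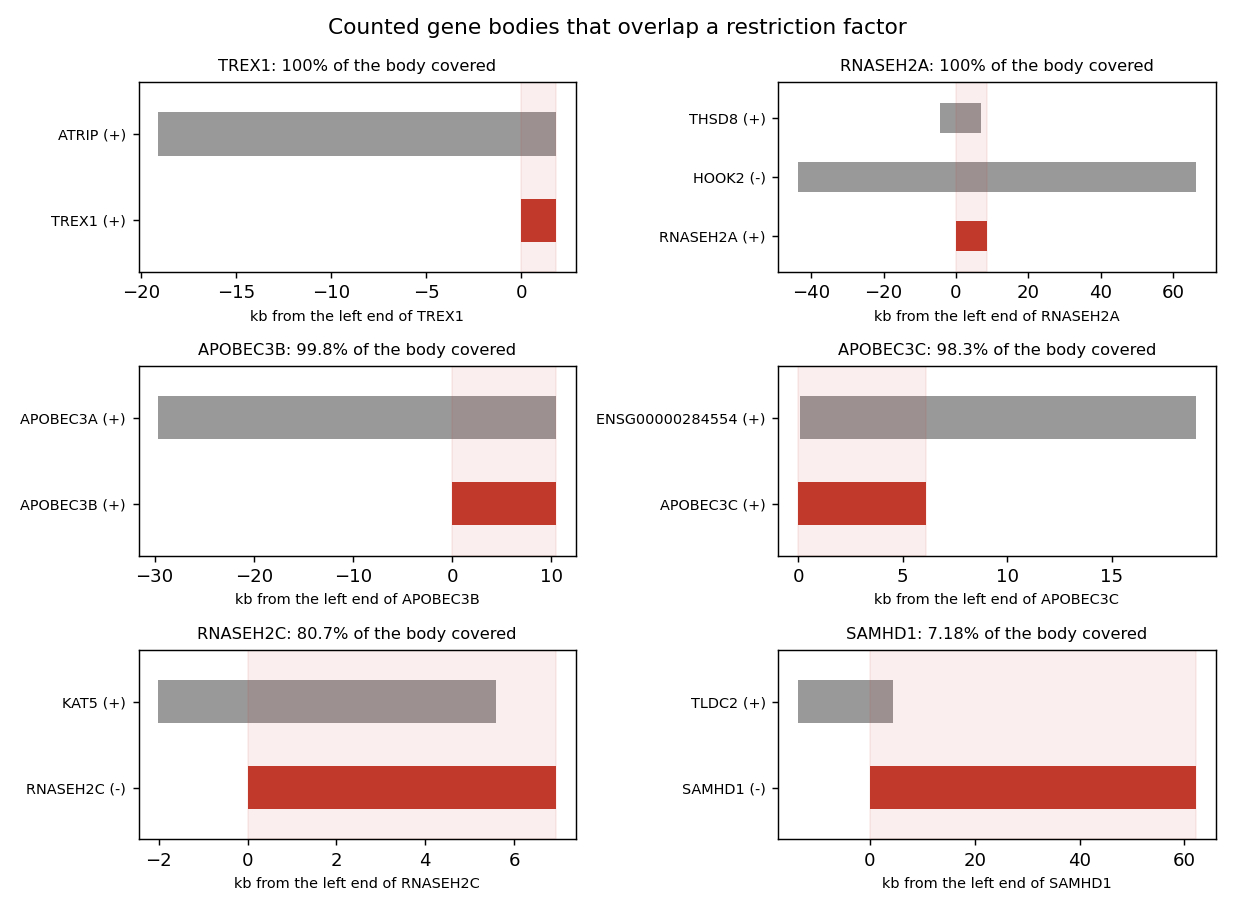
Gene bodies in the count table around 6 members. Each panel plots position in kb from the left end of the member (x axis), with the member in red, other counted genes in grey and the strand in brackets. The shaded span is the member's body. It is covered to 100% for TREX1 and RNASEH2A, 99.8% for APOBEC3B, 98.3% for APOBEC3C, 80.7% for RNASEH2C and 7.18% for SAMHD1.

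The same pattern held across the table. Of 1561 genes with 99% or more of the body covered by other counted genes, 1460 (93.5%) were at 0 in all 6 libraries, against 1470 of 13357 genes (11.01%) without any overlap. Of 400 genes covered to 90 to 99%, 82 were at 0 (20.5%), and of 4668 covered to a lesser extent, 99 were (2.12%). Genes related to the members shared this. RNASEH1, which encodes the other nuclear RNase H, and APOBEC3D were at 0 with all or nearly all of the body covered, as were the interferon-stimulated genes IFIT1, IFIT2 and IFIT3, which lie within LIPA. APOBEC1 and SLFN11 were at 0 without overlap, where 0 counts allow up to 0.128 to 0.187 CPM depending on the library.

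**Figure D2:**
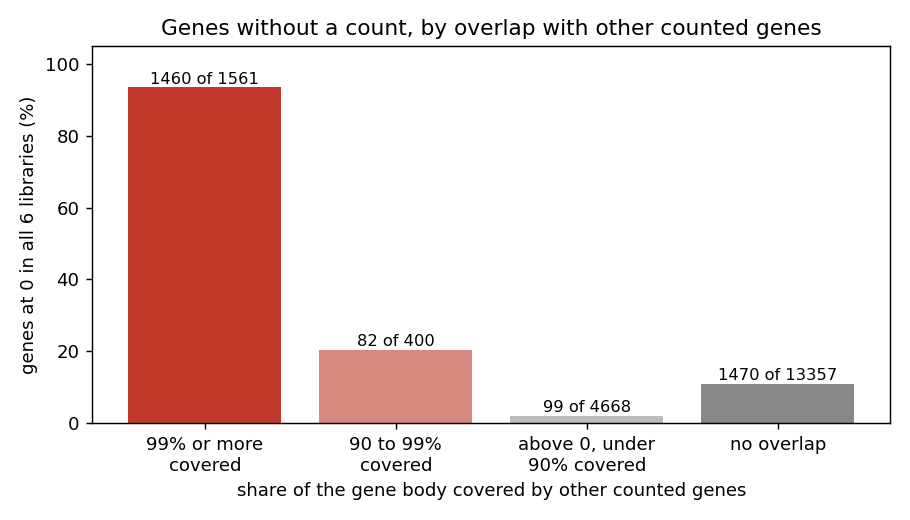
Share of genes at 0 counts in all 6 libraries (y axis, percent) by how much of the gene body other counted genes cover (x axis). Numbers above the bars are genes at 0 of all genes in the class. The bar for 99% or more stands at 93.5% and that for no overlap at 11.01%.

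SAMHD1 and RNASEH2C also lost part of their exons in this way. RNASEH2C (ENSG00000172922, chromosome 11, 65714005 to 65720947, minus strand) shares 73.7% of its exon bases with KAT5, and SAMHD1 (ENSG00000101347, chromosome 20, 36889773 to 36951901, minus strand) shares 36.9% with TLDC2. ADAR (ENSG00000160710, chromosome 1, 154582057 to 154628013), MOV10 (ENSG00000155363, chromosome 1, 112673141 to 112700746), ZC3HAV1 (ENSG00000105939, chromosome 7, 139043515 to 139109720) and RNASEH2B (ENSG00000136104, chromosome 13, 50909678 to 51024120) overlap no other counted gene. MOV10 and RNASEH2B overlap non-coding genes on the other strand (AL603832.1, and RNASEH2B-AS1 with GUCY1B2), whose reads cannot be told apart from theirs.

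Levels were compared between genes per kb of merged exon (GENCODE release 29), over all 6 libraries. The counts were taken over whole gene bodies, introns included, so exon length does not match them exactly. It also includes exon bases shared with other genes, 73.7% of those of RNASEH2C. ADAR stood at 27.2 ± 4.28 CPM per kb, RNASEH2C at 22.0 ± 5.94, MOV10 at 10.7 ± 1.39 and ZC3HAV1 at 5.24 ± 1.19 (SD, n = 6). RNASEH2B was at 3.09 ± 0.614 and SAMHD1 at 1.93 ± 0.399 CPM per kb (SD, n = 6). By this length, ADAR and RNASEH2C did not differ beyond their spread in batch A (25.2 and 25.5 CPM per kb). Nor did RNASEH2B and SAMHD1 in batch B (2.32 and 2.34). In batch B ADAR was at 31.0 and RNASEH2C at 14.9 CPM per kb. The order of this pair thus differed by batch, and over all 6 libraries it depended on the length used. ADAR was 1.24 times as high as RNASEH2C per kb of exon, but 0.355 times as high per kb of gene body and 0.326 times as high per kb of exon bases free of other genes. The place of SAMHD1 depended on the length too. Per kb of free exon bases SAMHD1 was at 3.06 and RNASEH2B at 3.09 over all 6 libraries. In batch B they were at 3.70 and 2.32.

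The main comparison was of the guide response, which asked whether cells with the SVA_D guide held other levels of these RNAs. Of the 6 tested members, 0 passed, as did 0% of all 13007 tested genes (edgeR's quasi-likelihood test with the batch as a covariate, adjusted p under 0.05). At an unadjusted p under 0.05 the count was also 0 of 6 by edgeR, DESeq2 and limma-voom, against 487, 264 and 523 of all 13007 genes. A count of 0 of 6 is near that background. The median log2 fold change of the 6 was 0.032, against 0.0031 for all tested genes, with 3 above and 3 below 0. In bulk RNA, fewer cells that hold an RNA and less RNA per cell cannot be told apart.

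Among the factors that act on RNA, ADAR was at 299, 227 and 307 CPM in guide replicates 1, 2 and 3 and at 213, 239 and 294 CPM without the guide. The groups overlapped, since guide replicate 2 lay below no-guide replicates 2 and 3. The means were 278 ± 44.2 and 249 ± 41.4 CPM (SD, n = 3), with a log2 fold change of 0.17 ± 0.10 (SE; edgeR adjusted p = 0.997). Within batch A the value was 0.22 and within batch B 0.065. It was 0.030 without guide replicate 1, the library that was high within batch A.

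MOV10, a helicase known to bind L1 RNA particles, was at 61.9, 64.5 and 81.0 CPM with the guide and at 61.4, 68.6 and 80.8 CPM without it. The values of the groups interleaved, and both replicate 3 libraries were the highest of their group. The log2 fold change was -0.025 ± 0.079 (SE; edgeR adjusted p = 0.997), and its 95% interval of -0.19 to 0.14 spans 0.874 to 1.10 times. ZC3HAV1 was at 38.5, 36.8 and 57.6 CPM with the guide and at 32.4, 41.3 and 52.4 CPM without it, again with the replicate 3 libraries on top. Its log2 fold change was 0.072 ± 0.097 (SE; edgeR adjusted p = 0.997).

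SAMHD1, the deoxynucleotide phosphohydrolase, was at 24.3, 17.9 and 26.3 CPM with the guide and at 15.9, 19.98 and 26.4 CPM without it. The groups overlapped. Within batch A guide replicate 1 was the highest and no-guide replicate 1 the lowest, as they were for ADAR. The log2 fold change was 0.15 ± 0.13 (SE; edgeR adjusted p = 0.997). Within batch A the value was 0.23 and within batch B -0.0054. It was -0.0039 without guide replicate 1.

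The RNase H2 subunits with counts differed by less than their standard errors. RNASEH2B, an accessory subunit, was at 86.7, 91.2 and 63.7 CPM with the guide and at 98.5, 88.6 and 58.5 CPM without it. RNASEH2C, the other accessory subunit, was at 107, 138 and 80.8 CPM with the guide and at 139, 136 and 71.7 CPM without it. In both genes the replicate 3 libraries were the lowest. Their log2 fold changes were -0.0092 ± 0.081 and -0.055 ± 0.10 (SE; edgeR adjusted p = 0.998 and 0.997).

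**Figure D3:**
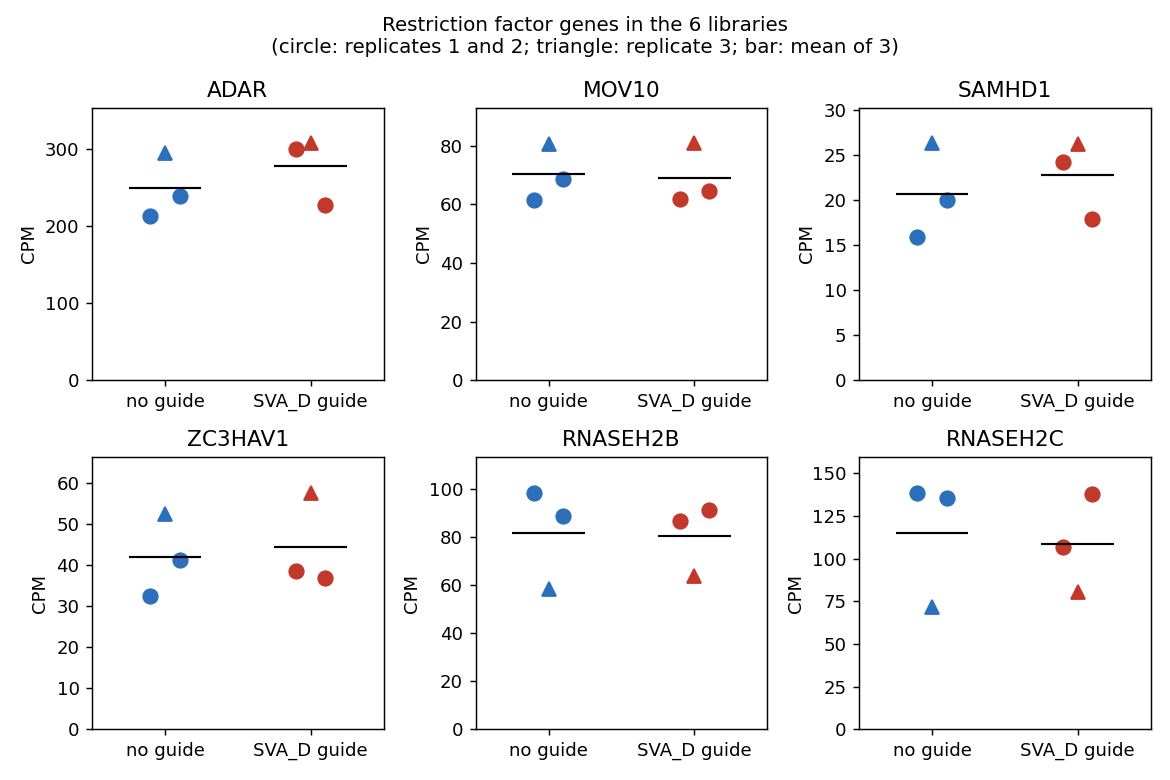
Level of the 6 tested members in each library. The y axis is CPM from 0, the x axis is the group, circles are replicates 1 and 2, triangles are replicate 3 and bars are means of 3 libraries. The groups overlap in every panel, while the triangles lie above the circles of their own group for ADAR, MOV10, SAMHD1 and ZC3HAV1 and below all circles for RNASEH2B and RNASEH2C.

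The 95% intervals of the 6 guide responses bound their size. Among higher values the widest bound was that of SAMHD1, at 1.35 times, followed by ADAR at 1.30 times. Among lower values it was that of RNASEH2C, at 0.827 times. Complete separation of the guide libraries from the others was seen for 0 of the 6, against 2.84% of all tested genes. A guide response that differed between batches was tested as an interaction with 2 residual degrees of freedom, and 0 of 6 members and 0% of all genes passed (edgeR). The interaction with the smallest p among the members was that of RNASEH2C (0.34 ± 0.19, SE; edgeR adjusted p = 0.669). Its log2 ratio of guide to no guide was -0.16 within batch A and 0.17 within batch B.

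None of the 10 members contains an SVA_D copy in its body. The nearest copy lay 17281 bases from the start of TREX1, 23846 from SAMHD1, 31904 from MOV10 and 41245 from RNASEH2C. Thus 4 of 10 members had a copy within 50000 bases, against 7.80% of all genes on chromosomes with a copy. The copies in question, SVA_D_dup279, SVA_D_dup1393, SVA_D_dup77 and SVA_D_dup905, had 0 to 5 counts in any library. SVA_D_dup1393 near SAMHD1 had 0, 1 and 5 counts with the guide and 0, 0 and 0 without it. SVA_D_dup77 near MOV10 had 1, 0 and 4 with the guide and 0, 0 and 1 without it. SVA_D_dup905 near RNASEH2C had 0, 0 and 3 with the guide and 0, 0 and 2 without it. For SVA_D_dup279 near TREX1 the counts were 1, 0 and 0 with the guide and 0, 0 and 0 without it. The other 6 members started 167442 to 1226641 bases from a copy.

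Retrotransposon RNA of the kinds these factors act on was read in the same libraries, with pairs that align to several places counted at each. L1HS, the youngest L1 subfamily, stood at 28.1 ± 3.32 CPM in guide libraries against 28.6 ± 2.40 CPM in the others, and AluYa5 at 38.9 ± 3.49 against 43.5 ± 3.89 CPM (SD, n = 3). Of the 9 subfamilies looked up, 1 passed, SVA_E, against 0.1% of 998 tested (edgeR). SVA_E had a log2 fold change of 0.85 ± 0.11 (SE; edgeR adjusted p = 3.22e-05) and SVA_D of 0.25 ± 0.078 (SE; edgeR adjusted p = 0.927). SVA_F was at 0.29 ± 0.086, SVA_C at 0.26 ± 0.11, SVA_A at 0.16 ± 0.099 and SVA_B at -0.012 ± 0.090 (SE), and none of these passed. With library sizes from the subfamily table SVA_D passed too, at 0.30 ± 0.044 (SE; edgeR adjusted p = 0.00659), as did 3 of the 9. Without the batch term SVA_E did not pass (edgeR adjusted p = 0.0650). Between the batches 34.3% of the 998 subfamilies passed, whereas the smallest edgeR adjusted p of the 9 was 0.0682, that of L1HS.

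The members differed more between the batches than with the guide. All 6 tested members passed, 4 higher in batch B (ADAR, MOV10, SAMHD1 and ZC3HAV1) and 2 lower (RNASEH2B and RNASEH2C). This background was large, as 27.1% of all tested genes were called higher and 26.6% lower in batch B, 53.7% in all (edgeR, group in the model). DESeq2 and limma-voom also called 4 higher and 2 lower. What set the batches apart is not given in the sources used here, and its part in these differences was not tested. Neither was that of the markers that differed with the batch, such as VIM, at 681 and 743 CPM in batch B against 1628 to 2039 CPM in batch A, and COL1A1.

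ZC3HAV1 had the largest rise of the 4. It stood at 32.4 to 41.3 CPM in the 4 batch A libraries and at 52.4 and 57.6 CPM in batch B, without overlap, as did 32% of all genes in that direction. Its log2 fold change was 0.56 ± 0.10 (SE; edgeR adjusted p = 0.000375), or 1.48 times, and it was 0.61 among guide libraries and 0.51 among the others. MOV10 rose by 0.34 ± 0.082 on the log2 scale (SE; edgeR adjusted p = 0.00363), with batch A at 61.4 to 68.6 CPM.

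SAMHD1 and ADAR were higher by 0.44 ± 0.13 and 0.30 ± 0.10 on the log2 scale (SE; edgeR adjusted p = 0.0145 and 0.0255). For ADAR the batches overlapped, since guide replicate 1 of batch A (299 CPM) lay above no-guide replicate 3 of batch B (294 CPM). With 1 library left out these 2 calls were often lost, while the log2 difference ran from 0.22 to 0.39 for ADAR and from 0.31 to 0.56 for SAMHD1. The ADAR call was lost without guide replicate 2 (edgeR adjusted p = 0.104), guide replicate 3 (0.0505), no-guide replicate 1 (0.0910), no-guide replicate 2 (0.0610) or no-guide replicate 3 (0.234). SAMHD1 did not pass without guide replicate 2 (0.0534), no-guide replicate 1 (0.0538) or no-guide replicate 3 (0.197).

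The RNase H2 subunits were lower in batch B. RNASEH2C was at 107 to 139 CPM in batch A and at 71.7 and 80.8 CPM in batch B, and fell by 0.76 ± 0.11 on the log2 scale (SE; edgeR adjusted p = 7.93e-05). RNASEH2B was at 86.7 to 98.5 CPM in batch A and at 58.5 and 63.7 CPM in batch B, and fell by 0.58 ± 0.088 (SE; edgeR adjusted p = 0.000119). Both passed in each of the 6 fits that left out 1 library. KAT5, the gene that covers most exon bases of RNASEH2C, was also lower in batch B, at 14.3 and 16.4 CPM against 22.8 to 27.2 CPM.

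**Figure D4:**
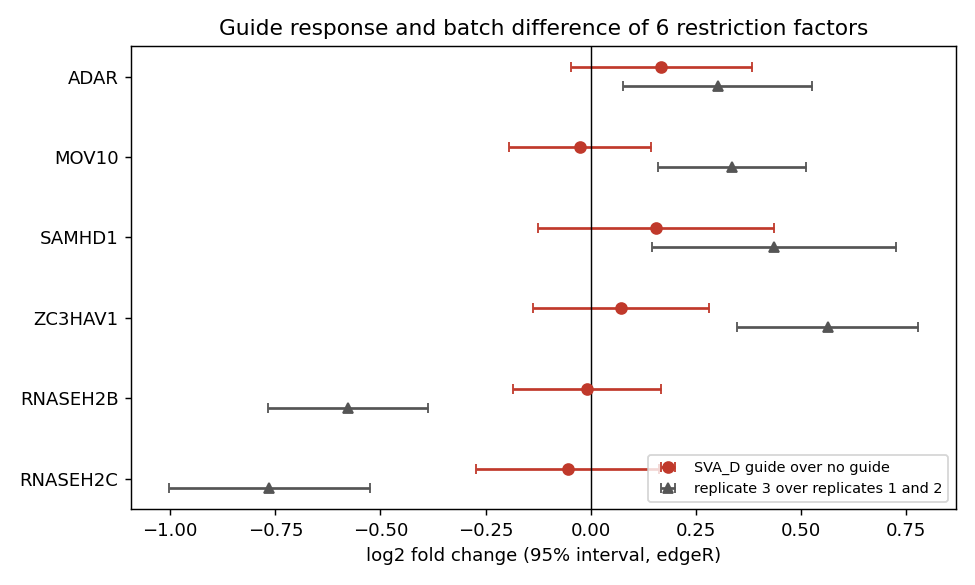
Log2 fold changes of the 6 tested members (x axis) with 95% intervals from edgeR. Red circles are the guide over no guide and grey triangles are replicate 3 over replicates 1 and 2. Every guide interval spans 0, and no batch interval does, from -0.76 for RNASEH2C to 0.56 for ZC3HAV1.

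Other restriction factors were looked at as a list of 32 genes, of which 22 were tested. With the guide 0 passed (edgeR), 16 were above and 6 below 0, and the median log2 fold change was 0.080 against 0.0031 for all genes. At an unadjusted p under 0.05 there was 1, BST2, which encodes the membrane protein tetherin. BST2 was at 1.17, 1.62 and 23.7 CPM with the guide and at 1.10, 1.28 and 13.9 CPM without it, so both groups were set apart far more by replicate 3 than by the guide. Its log2 fold change with the guide was 0.58 ± 0.19 (SE; edgeR adjusted p = 0.997) and between batches 3.85 ± 0.18 (SE; edgeR adjusted p = 1.97e-08).

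APOBEC3F, a cytidine deaminase with 693 counts in all, and HNRNPL, an RNA-binding protein, followed with log2 fold changes of 0.28 ± 0.17 and 0.13 ± 0.082 (SE; edgeR adjusted p = 0.997 each). On the lower side were SLFN5 with -0.34 ± 0.21, DICER1 with -0.084 ± 0.076 and the nuclease gene ERCC4 with -0.067 ± 0.10 (SE). Between batches 6 of the 22 passed as higher and 6 as lower, close to the shares of 27.1% and 26.6% among all genes, with a median of -0.085. APOBEC3F was among the higher, from 2.86 to 4.29 CPM in batch A to 8.51 and 10.5 CPM in batch B. ERCC1, the partner of ERCC4, fell by 0.66 ± 0.085 on the log2 scale (SE; edgeR adjusted p = 3.22e-05).

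Since several members respond to interferon in other settings, 20 interferon-stimulated genes were read beside them. Of these, 11 were tested, and with the guide 0 passed, with 3 at an unadjusted p under 0.05, all higher, where 347 of all 13007 genes were higher and 140 lower. IFI6 was at 11.1, 13.9 and 152 CPM with the guide and at 9.20, 11.3 and 103 CPM without it. Its log2 fold change with the guide was 0.41 ± 0.11 and that of IFI44L 0.58 ± 0.21 (SE; edgeR adjusted p = 0.997 each). On the lower side, IFIT5 had -0.060 ± 0.090, IFI27 -0.20 ± 0.31 and IRF7 -0.048 ± 0.26 (SE).

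Between batches, 10 of these 11 passed as higher in batch B and 0 as lower, against 27.1% and 26.6% of all tested genes. Their median log2 difference was 1.22, and that of all tested genes 0.0058. The 4 members higher in batch B differed by 0.30 to 0.56, below that median. Of 10 genes of cytosolic nucleic acid sensing in the table, 8 were tested, and 5 were higher and 1 (MAVS) lower in batch B. The same shares of all genes, 27.1% and 26.6%, are the background. RIGI and IFIH1, both among the higher, are also in the list of interferon-stimulated genes, so the counts are not separate. With the guide 0 of the 8 passed, while 8 were above and 0 below 0. Their median log2 fold change was 0.085, against 0.0031 for all tested genes. The smallest p were those of DHX58, EIF2AK2 and STING1, with log2 fold changes of 0.72 ± 0.55, 0.095 ± 0.080 and 0.24 ± 0.26 (SE).

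**Figure D5:**
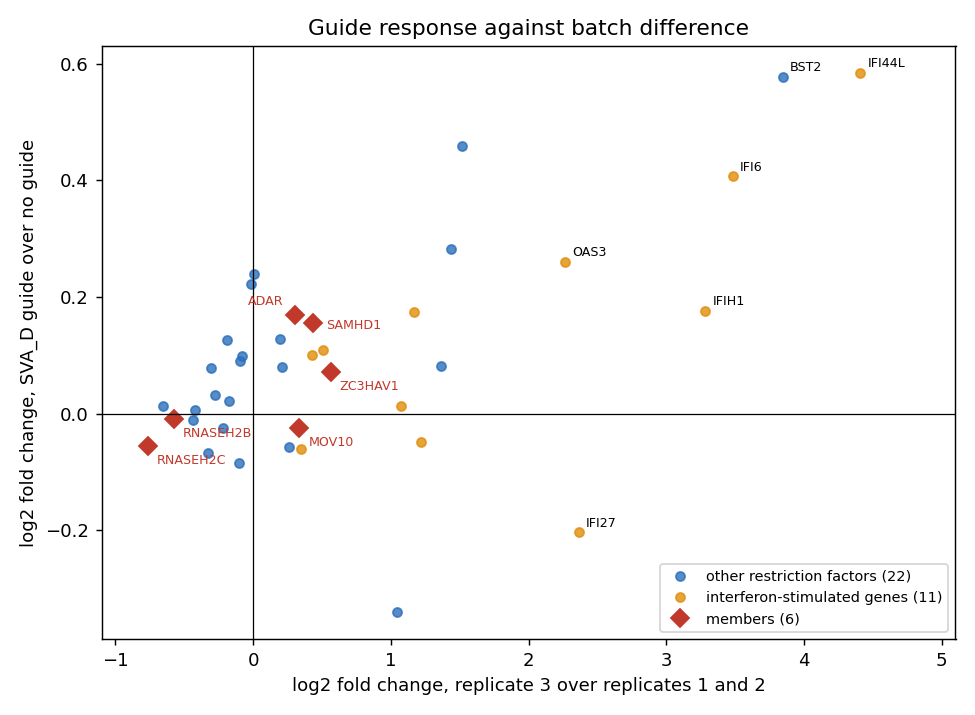
Log2 fold change with the guide (y axis) against that between batches (x axis) for the 6 tested members (red diamonds), 22 other restriction factors (blue) and 11 interferon-stimulated genes (orange). Genes above 2 on the x axis are named. The members lie between -0.76 and 0.56 on the x axis, while IFI44L lies at 4.41 and BST2 at 3.85.

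Genes that supply deoxynucleotides, the substrate of SAMHD1, were 12 in number, of which 10 were tested. With the guide 0 passed and 9 lay below 0, with a median of -0.030. The kinase gene TK2 had 0.33 ± 0.22, DCK -0.12 ± 0.080, the ribonucleotide reductase subunit gene RRM2 -0.048 ± 0.074 and TYMS -0.040 ± 0.079 (SE; edgeR adjusted p = 0.997 each). Between batches 1 passed as higher and 3 as lower, against 27.1% and 26.6% of all tested genes.

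The profile of each member over the 6 libraries was compared with that of every tested gene, by the root mean square difference of log2 CPM after centring. The nearest gene to both ADAR and SAMHD1 was ARHGAP4, at 0.033 and 0.063 log2 units. LRSAM1 was nearest to MOV10 (0.030), GLDC to ZC3HAV1 (0.055), KRI1 to RNASEH2B (0.031) and ALG5 to RNASEH2C (0.041). Among the members themselves, ADAR and SAMHD1 were each other's nearest, at 0.084 log2 units. So were MOV10 and ZC3HAV1 at 0.14, and RNASEH2B and RNASEH2C at 0.14. Among all tested genes, the partner in such a pair ranked only from 17 (for SAMHD1) to 1605 (for MOV10) by distance. These distances rest on 6 libraries that share the batch difference, so many genes come close.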

How the data were processed

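RNA-seq of 6 HEK293T libraries was analysed from the authors' deposited raw count tables of genes, repeat subfamilies and SVA_D copies. Per the submitters' processing notes, FastQC 0.11.8, STAR 2.7.0e and featureCounts 2.0.0 were used on GRCh38. Per the file headers, gene counts were taken from Ensembl release 97 models. Of 19986 gene identifiers, 19887 had a symbol in the reference name table, 93 only in GENCODE release 29 and 6 in neither.

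Differences were tested on the whole table in R 4.3.3 with edgeR 4.0.16 (TMM, filterByExpr with a minimum count of 10, Benjamini-Hochberg threshold 0.05), with group and batch in the model. CPM values use TMM-scaled library sizes, and the subfamily tests used those of the genes. Standard errors are the log2 fold change over the root of the F statistic. DESeq2 1.42.0 and limma 3.58.1 (voom) were alternatives. On data simulated for the guide comparison (12917 genes), 100% of genes changed by a log2 of 1 were recovered. Every simulated gene had the same spread beyond counting error (the common dispersion, 0.00697). Recovery of genes with a larger spread was not simulated.

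The batch was made a term because earlier results of these data showed it, and the members and lists were chosen with such results known. It lowered the common dispersion from 0.0609 to 0.00697. The text names all members and, of each list, up to 3 tested genes with the smallest p on each side. Some genes of the lists are counted but not reported here by name. BST2, IFI6 and genes at 0 are given in more detail after their values were seen. Deviations from the group means, which span both batches, correlated between same-numbered libraries (r = 0.511, 0.598 and 0.841 across genes for replicates 1, 2 and 3). Only for replicate 3 was the same-numbered library the best match in both directions. Within batch A the correlation was -0.049, and the labels do not say what the numbers share.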

Additional observations from a re-analysis of the deposited data

How the results depend on the processing

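The guide response called 0 of the tested members and 0 of the other restriction factors under all alternatives run, which were other scaling, no count filter, DESeq2, limma-voom, no batch term, batch A alone, each library left out and the replicate block. With the replicate number as a block (pairing same-numbered libraries) the count of members called was 0, and the block changed no other call. Without guide replicate 2, 1 member had an unadjusted p under 0.05. Signs near 0 turned: without TMM MOV10 was at 0.015 and RNASEH2B at 0.033 (log2). With 1 library left out MOV10 ran from -0.069 to 0.021, SAMHD1 from -0.0039 to 0.25, ZC3HAV1 from -0.016 to 0.18, RNASEH2B from -0.075 to 0.052 and RNASEH2C from -0.17 to 0.075. Over all genes, the guide calls were 7 without a count filter, 1 with DESeq2 and 2 without guide replicate 1, against 0.

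Between batches 6 members were called under each scaling and tool, and 4 to 6 with 1 library left out. Without TMM the median of all genes moved to 0.20 and 75.0% of all batch calls were higher, against 50.5%, while the members stayed at 4 higher and 2 lower. Of the 9 retrotransposon subfamilies, 3 passed with library sizes from the subfamily table (SVA_D, SVA_E and SVA_F) and 0 without the batch term. With the former, L1HS turned to 0.030, AluYb8 to 0.00015 and SVA_B to 0.048. ADAR over the next member was 0.355 per kb of gene body and 0.326 per kb of free exon, the latter chosen after seeing the data. Depth is not what limits TREX1 and RNASEH2A, whose bodies are fully covered by other genes, while APOBEC3C had 13 counts in all. Counting floors cover counting error only.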
